A study of Homo sapiens with 83 samples.

Results

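The translation initiation and elongation factors are the proteins that bring a ribosome to an mRNA, set it on the start codon and move it along the coding sequence. Their genes were chosen by name, with no measured change used: every gene in the deposited tables whose symbol began with EIF1 to EIF6, EEF1 or EEF2, less the EIF2AK kinases, read-through names with a hyphen and pseudogene names, and with a mean of at least 1 TPM (transcripts per 1000000) in either cell line. Of 60237 genes in the tables, 213 had such a name. After 5 EIF2AK genes, 5 hyphenated names and 137 pseudogene names were left out, 66 remained, 4 of these lay under the level limit, and 62 were members. EIF5AL1, at a mean of 1.31 TPM in SKNAS, lay just inside the limit, and EIF4E3, at 0.193 TPM in SHEP and 0.508 TPM in SKNAS, just outside it. Of the 62 genes, 60 reached 1 TPM in SHEP, and EIF4EBP3 and EIF5AL1 did so in SKNAS alone.

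RNA-sequencing was performed on circadian time series of 2 human neuroblastoma lines, SHEP and SKNAS, both N-MYC-ER lines, in which N-MYC fused to the estrogen receptor ligand-binding domain is expressed constitutively and enters the nucleus on exposure to 4-hydroxytamoxifen. Cells given 4-hydroxytamoxifen were MYC-ON and cells given ethanol vehicle were MYC-OFF, so the controls carried the fusion protein too. All cells were entrained with dexamethasone, and RNA was taken every 4 hours from circadian time (CT) 24 to 76, or to 72 in SKNAS MYC-ON. SHEP had 28 MYC-OFF and 28 MYC-ON libraries in 2 replicate series, and SKNAS had 14 MYC-OFF and 13 MYC-ON libraries in a single series. Time points stood in for replicates within a series, so the SKNAS p-values measure the spread over time points of a single experiment. Those of SHEP measure mainly the spread over time points of 2 series, and not over 28 independent experiments.

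In a cell, eIF4E binds the mRNA cap and, with the scaffold eIF4G and the helicase eIF4A, forms eIF4F. The 4E-binding proteins compete with eIF4G for eIF4E until mTOR phosphorylates them. eIF2 brings the initiator tRNA, eIF2B recharges eIF2 with GTP, eIF3 joins the small subunit to eIF4F, and eEF1A and eEF2 then deliver aminoacyl-tRNAs and translocate the ribosome. MYC proteins are known to bind the E-box CACGTG and to raise genes of ribosome biogenesis and translation.

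The E-box was searched for in the 250 bases before each RefSeq gene start (GRCh38.p14), where the motif reads the same on both strands. It lay within this stretch in 13 of the 48 members that the RefSeq promoter table holds, or 27.1%, beside 7.73% of all 27305 genes in that table and 11.2% of the 10282 of them that were tested in SHEP. The windows below are from EIF4E and EIF4G1 of the cap-binding complex, the helicase gene EIF4A3, and EEF2K and EEF1AKMT4, which act on elongation factors, all with levels described further on. They are a choice among the 13 genes and are written 5′ to 3′ on the strand of the gene with the E-box in capitals, and credited to RefSeq.
EIF4E, chr4:98929341-98929370, minus strand: ctacccatcggcCACGTGaccagtcctttt
EIF4E, chr4:98929188-98929217, minus strand: ggacatatccgtCACGTGgccagaagctgg
EIF4A3, chr17:80147232-80147261, minus strand: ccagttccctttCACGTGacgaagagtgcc
EIF4G1, chr3:184314450-184314479, plus strand: ggctgtggctgtCACGTGacggggcggggg
EIF4G1, chr3:184314527-184314556, plus strand: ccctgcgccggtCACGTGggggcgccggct
EEF2K, chr16:22206207-22206236, plus strand: cctgggggcggcCACGTGagcgccacgccg
EEF1AKMT4, chr3:184249431-184249460, plus strand: cagtgatgagccCACGTGagtctgacacct
EEF1AKMT4, chr3:184249563-184249592, plus strand: ggacggaagttcCACGTGtttgtgttgagc
The E-boxes of EIF4E lay 225 and 72 bases before its start, that of EEF2K 59, that of EIF4A3 121, those of EIF4G1 144 and 67, and those of EEF1AKMT4 229 and 97. A match of letters is a description of these windows and not a measured binding site. The motif was in 8 of 29 members that rose with MYC-ON in SHEP (27.6%), in 4 of 12 that were not called (33.3%) and in 0 of 5 that fell.

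The deposited values were TPM, which scale each library to the same total and each gene by its length. They are shares of a library, so a change in total RNA per cell or in the number of cells cannot be seen. The paper gives an average read depth, but the depth of each library was not known. MYCN transcript, in which the TPM alone do not tell transgene from endogenous reads, was present in every group, with means ± SD in SHEP of 555 ± 70.8 TPM without and 377 ± 69.5 TPM with 4-hydroxytamoxifen (n = 28 and 28), and in SKNAS of 547 ± 341 and 365 ± 297 TPM (n = 14 and 13). The paper states that SHEP have no N-MYC expression of their own, and reports the SKNAS fusion transcript far above endogenous N-MYC. By qPCR it reports a higher level of the fusion transcript in SKNAS than in SHEP, a difference that these mean TPM do not show. Among 8 adrenergic neuroblastoma markers 2 reached 1 TPM in SHEP of either condition, and 5 and 4 did so in SKNAS MYC-OFF and MYC-ON; of 7 mesenchymal markers 6 or 7 did so in every group. Of 4 leukocyte markers 1 reached 1 TPM in SHEP and 2 in SKNAS, where PTPRC averaged 80.4 and 21.5 TPM in MYC-OFF and MYC-ON while CD3E was at 0, and 0 of 3 endothelial markers did so in any group; the part of these markers in the results was not tested. The SKNAS libraries differed in the median level of their genes: by the library median of log2(TPM + 1), 13 libraries lay at 3.8 or above, 7 between 3.3 and 3.8, and 7 under 3.3, and ribosomal protein genes took 14.8 to 21.9% of TPM in the first set and 26.4 to 31.9% in the last. These sets held 10, 1 and 3 of the MYC-OFF libraries and 3, 6 and 4 of the MYC-ON libraries. SKNAS counts, and the SKNAS values it moved, are therefore given with and without the library median as a covariate.

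To ask which translation factors changed when N-MYC was activated, MYC-ON was compared with MYC-OFF in SHEP across both series and all time points. In this limma fit a gene was called where its p, adjusted by the method of Benjamini and Hochberg, was 0.05 or less and its log2(TPM + 1) changed by at least 0.15. Of the 60 members tested, 38 rose and 5 fell, or 63.3% and 8.33%, beside 33.0% of all 14362 genes tested that rose and 38.8% that fell. The members' median change was 0.26 and that of all genes −0.04 (log2). All 43 called members had the same sign in both series, and 38 were called in each series on its own. For 12 of those that rose, the lowest of 28 MYC-ON libraries lay above the highest of 28 MYC-OFF libraries: EIF2B2, EIF2D, EIF3B, EIF3D, EIF3J, EIF3M, EIF4A1, EIF4E, EIF4EBP1, EEF1A2, EEF1AKMT4 and EEF2K. Of all genes tested, 6.11% rose without overlap. With a replicate block for series, the counts were again 38 and 5. The SHEP design is balanced, so this block changes the standard errors and not the estimates, and the directions could not differ. With the time points of a series averaged to 1 value, 29 rose and 3 fell, and EEF1A1, EEF2, EIF1AD, EIF3H and EIF4G3 were among those no longer called. The share of all genes was not taken for the blocked or averaged fits, or for the agreement between the series.

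**Figure D1:**
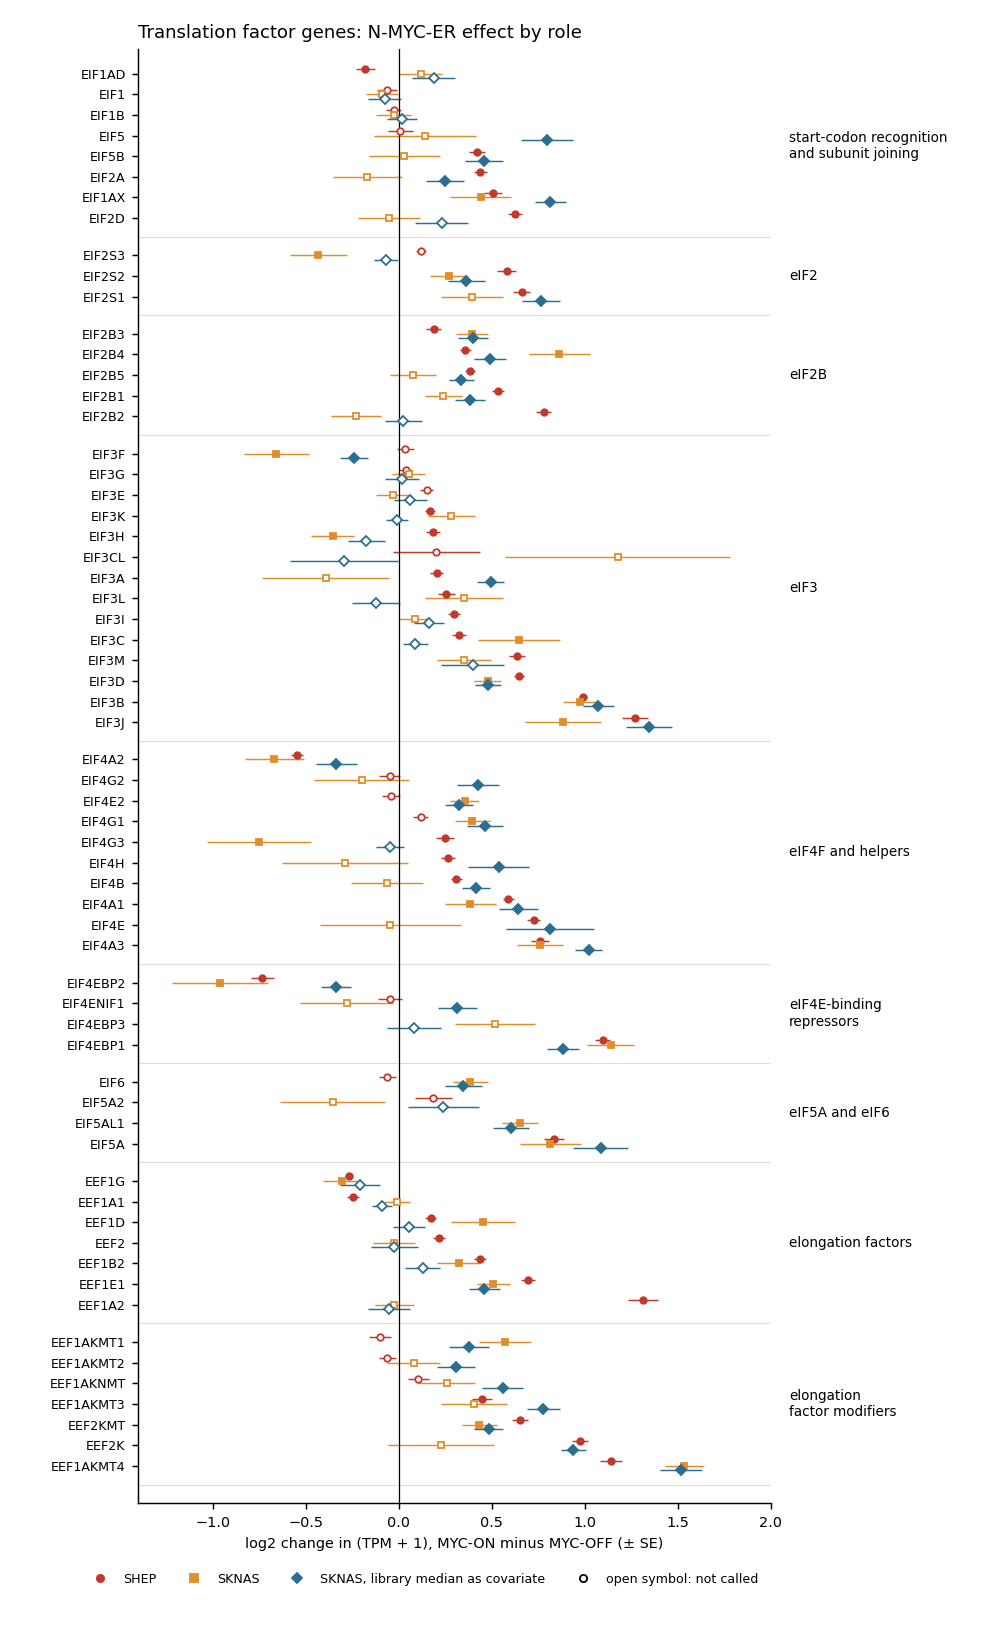
MYC-ON minus MYC-OFF (log2 of TPM + 1, horizontal axis) for each translation factor, grouped by role, in SHEP and in SKNAS with and without the library-median covariate; points are limma estimates, bars their standard errors, and open symbols were not called. All 5 eIF2B subunits lie above 0 in SHEP, and EIF4A2 and EIF4EBP2 lie below 0 in both lines.

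Of the 10 genes of eIF4F and its helpers, 6 rose in SHEP, 1 fell and 3 were not called. The cap-binding protein gene EIF4E (chr4:98879276-98929133), whose E-boxes are printed above, had 92.6 to 118 TPM in MYC-OFF (median 101) and 133 to 207 TPM in MYC-ON (median 174). The 2 conditions did not overlap, and the rise was 0.73 ± 0.04 (log2, SE; adjusted p = 1.18e-23). The helicase gene EIF4A1 (chr17:7572824-7579006) went from 796 to 1089 TPM (median 877) in MYC-OFF to 1177 to 1556 TPM (median 1336) in MYC-ON, also without overlap (0.59 ± 0.03, adjusted p = 1.62e-23). Reads of EIF4A1 could be shared with the read-through gene SENP3-EIF4A1, which overlaps it on the same strand. Its close paralog EIF4A2 (chr3:186783205-186789897) moved the other way. EIF4A2 had 122 to 180 TPM (median 160) in MYC-OFF and 80.2 to 145 TPM (median 105) in MYC-ON, and it was lower with MYC-ON in all 28 pairs of libraries matched by series and time (−0.55 ± 0.03, adjusted p = 2.49e-20). EIF4A3, a related helicase that sits in the exon junction complex, rose by 0.76, from a median of 190 to 344 TPM. The helper genes EIF4B and EIF4H, which stimulate eIF4A, rose by 0.31 and 0.27. The scaffold genes were flatter. EIF4G1 had 254 to 355 TPM in MYC-OFF and 218 to 431 in MYC-ON, and its change of 0.12 ± 0.04 lay under the limit on size, but not without series 2 (0.21) or with the library-median covariate (0.17). EIF4G3 rose by 0.25 (adjusted p = 1.43e-05), and EIF4G2, which lacks the eIF4E-binding part, had a difference of −0.05 (adjusted p = 0.446), whose sign turned with the library-median covariate. EIF4E2, a cap-binding homolog linked to repression, had a difference of −0.04 (adjusted p = 0.447).

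The 4E-binding proteins split by paralog. EIF4EBP1 had 205 to 262 TPM (median 222) in SHEP MYC-OFF and 369 to 640 TPM (median 495) in MYC-ON, without overlap, a rise of 1.10 ± 0.04 (adjusted p = 4.42e-29). EIF4EBP2 (chr10:70404145-70428618) had 16.2 to 22.5 TPM (median 20.4) in MYC-OFF and 5.94 to 16.6 TPM (median 12.8) in MYC-ON. It was lower in all 28 pairs (−0.73 ± 0.06, adjusted p = 2.71e-15), and its groups overlapped only at the edge. EIF4EBP3 stayed between 0 and 1.53 TPM in SHEP and was not tested there. EIF4ENIF1, which encodes the eIF4E carrier 4E-T, had a difference of −0.05 (adjusted p = 0.524).

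Of the ternary complex genes, EIF2S1, the α subunit that stress kinases phosphorylate, went from 243 to 356 TPM (median 275) to 292 to 550 TPM (median 467), and it was higher in all 28 pairs (0.66 ± 0.05, adjusted p = 7.76e-18). EIF2S2 rose by 0.58, and EIF2S3 had a change of 0.12 that lay under the limit on size, and above it with the covariate (0.16). All 5 subunits of the exchange factor eIF2B rose, by 0.19 (EIF2B3) to 0.78 (EIF2B2). EIF2B2 had 40.9 to 56.8 TPM (median 50.8) in MYC-OFF and 63.6 to 107 TPM (median 90.2) in MYC-ON, with no overlap (adjusted p = 5.22e-23). EIF2B5, the catalytic subunit, went from a median of 38.9 to 51.8 TPM and was higher in all 28 pairs (0.38 ± 0.03, adjusted p = 3.95e-17). The ranges of EIF2B5, 34.1 to 44.9 and 41.6 to 57.8 TPM, met at their edges.

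Of the 8 genes of start-codon recognition and subunit joining, 4 rose and 1 fell. EIF2D, a factor that can deliver tRNA without eIF2, rose by 0.63 with no overlap. EIF1AX, part of the scanning complex, rose by 0.51, EIF2A by 0.44 and EIF5B, the GTPase of subunit joining, by 0.42. EIF1AD, a relative of EIF1AX, fell by 0.18 (adjusted p = 1.55e-03), with 8 of 28 pairs higher in MYC-ON; its change lay under the limit on size without series 2 (−0.07), with median-of-ratios scaling (−0.14) and with the library-median covariate (−0.11). EIF1, which guards start-codon choice, had a difference of −0.06 (adjusted p = 0.271), and EIF5, the GTPase activator of eIF2, of 0.01 (adjusted p = 0.910).

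Of the 14 eIF3 genes, 10 rose, 0 fell and 4 were not called, with changes from 0.04 to 1.27 and a median of 0.23. The subunits did not move by the same amount. EIF3B (chr7:2354086-2380745), the β-propeller scaffold subunit, had 123 to 150 TPM (median 133) in MYC-OFF and 236 to 308 TPM (median 269) in MYC-ON, a rise of 0.99 ± 0.02 (adjusted p = 2.23e-37). EIF3J, a loosely bound subunit, had 54.5 to 73.4 TPM (median 65.9) in MYC-OFF and 87.3 to 243 TPM (median 165) in MYC-ON, a rise of 1.27 ± 0.07 (adjusted p = 1.77e-21). Neither gene's groups overlapped. The rise of EIF3J was 1.08 in series 1 and 1.46 in series 2. EIF3D, which can bind the cap itself, rose by 0.65 and EIF3M by 0.63, both without overlap. At the other end, EIF3F had medians of 656 and 642 TPM (0.04, adjusted p = 0.491; −0.04 without series 2), EIF3G a difference of 0.04 and EIF3H a rise of 0.19 (adjusted p = 4.01e-05; 0.10 and not called without series 2). EIF3C and EIF3CL are near-identical copies on chromosome 16, so the split of reads between them is uncertain; EIF3C rose by 0.32 and EIF3CL ranged from 0 to 9.11 TPM in MYC-OFF.

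EIF5A (chr17:7306999-7312463), the hypusinated factor that relieves stalling at proline stretches, had 960 to 1276 TPM (median 1001) in MYC-OFF and 1023 to 2552 TPM (median 1932) in MYC-ON. It was higher in all 28 pairs although the groups overlapped (0.84 ± 0.05, adjusted p = 2.25e-19). Its homolog EIF5A2 had medians of 10.5 and 11.3 TPM (0.19, adjusted p = 0.0858). EIF6, which keeps the large subunit from joining too early, had medians of 388 and 386 TPM (−0.06, adjusted p = 0.227; 0.04 without series 2).

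The elongation factors held the most abundant transcripts of the set, and its 2 largest drops in median TPM. EEF1A1, which delivers aminoacyl-tRNA, had 7935 to 10304 TPM (median 9188) in MYC-OFF and 5568 to 9572 TPM (median 7651) in MYC-ON. The groups overlapped, but MYC-ON was higher in only 2 of 28 pairs (−0.24 ± 0.03, adjusted p = 1.32e-09). EEF1G, a subunit of the eEF1A exchange factor, went from a median of 1599 to 1320 TPM (−0.27, adjusted p = 2.27e-15), with 1 pair higher. The other exchange-factor genes rose: EEF1B2 by 0.44 and EEF1D by 0.17. EEF1A2 (chr20:63488013-63499239), the paralog of EEF1A1 known from neurons and muscle, had the largest change among the members in SHEP, from 13.8 to 33.7 TPM (median 19.8) to 38.2 to 75.2 TPM (median 52.8), without overlap. This was a rise of 1.31 ± 0.08 (adjusted p = 7.66e-20). EEF2, the translocase, rose by 0.22 from a median of 1633 TPM, and EEF1E1, a scaffold protein of the tRNA synthetase complex, rose by 0.70. Summed over all 7 elongation factor genes, TPM was 13659 ± 739 in MYC-OFF and 12691 ± 1397 in MYC-ON, whereas the 14 eIF3 genes summed to 4265 ± 158 and 5395 ± 470 and the 10 eIF4F genes to 2981 ± 114 and 3786 ± 241 (mean ± SD, n = 28). The share of the members' summed TPM taken by EEF1A1 was 36.6% in MYC-OFF and 28.1% in MYC-ON. EEF1A1 has many processed pseudogenes, so its level is uncertain by the reads they may take.

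Of the 7 genes whose products modify elongation factors, 4 rose and 0 fell. EEF2K (chr16:22206278-22288738), the kinase that inhibits eEF2, had 11.4 to 20.7 TPM (median 15.9) in MYC-OFF and 24.1 to 36.1 TPM (median 31.4) in MYC-ON, without overlap (0.98 ± 0.04, adjusted p = 1.33e-25). EEF1AKMT4 (chr3:184249672-184258759), a lysine methyltransferase of eEF1A, had 12.8 to 22.3 TPM (median 19.1) and 27.9 to 52.9 TPM (median 44.1), again without overlap (1.14 ± 0.06, adjusted p = 5.73e-23). This gene overlaps the read-through gene EEF1AKMT4-ECE2 on the same strand. EEF2KMT, which methylates eEF2, rose by 0.65 and EEF1AKMT3 by 0.45.

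**Figure D2:**
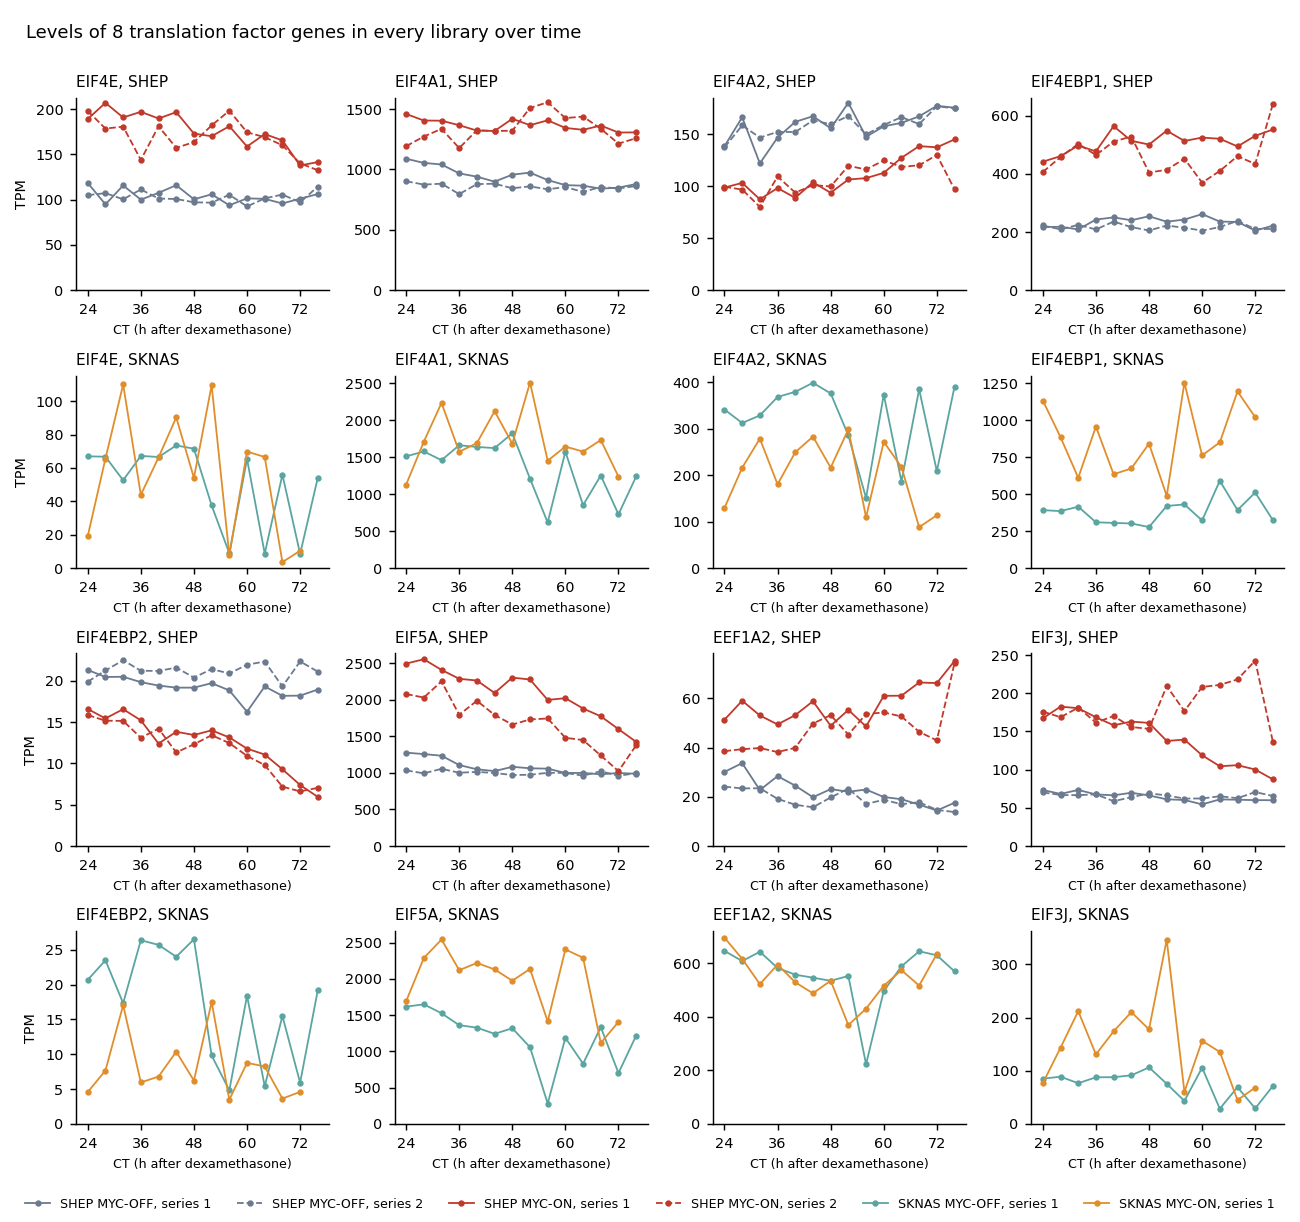
TPM (vertical axis) against circadian time in hours (horizontal axis) for 8 translation factors in SHEP and SKNAS, with every library drawn as a point and lines joining the libraries of a series, coloured by MYC-OFF and MYC-ON. For EIF4E, EIF4EBP1 and EEF1A2 in SHEP every MYC-ON point lies above every MYC-OFF point, whereas those of SKNAS EEF1A2 overlap, at medians of 575 and 528 TPM.

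Other genes of translation and its control, outside the name rule, were taken from a list of 49, of which 48 were tested in SHEP: 23 rose and 6 fell, beside the 33.0% and 38.8% of all genes. Of 9 mitochondrial translation factors 7 rose and 1 fell, led by MTIF2, the mitochondrial initiation factor, at 1.15, and MRRF, which recycles mitochondrial ribosomes, at 1.05. Of 9 genes of recycling, reinitiation and release 5 rose and 0 fell, among them the release factor genes GSPT1 (0.86) and ETF1 (0.69) and ABCE1 (0.73), which splits ribosomes. Of 9 hypusine and diphthamide genes 6 rose and 2 fell, and the 2 enzymes that make hypusine on eIF5A moved apart, with DHPS at −0.44 (adjusted p = 2.27e-17) and DOHH at 0.45 (adjusted p = 2.44e-07). Of 14 partners and regulators of the cap complex 4 rose and 1 fell: LARP1 rose by 0.62, and PDCD4, an inhibitor of eIF4A, fell by 0.30. Of 6 eIF2 kinases and phosphatase subunits 1 rose and 2 fell, with EIF2AK3, the kinase of the unfolded protein response, at −0.50. In SKNAS 8 of the 48 genes rose and 7 fell, beside 13.8% and 34.0% of all genes, and 24 and 6 did with the library-median covariate, beside 28.3% and 25.9%.

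In SKNAS, 22 of 62 members rose with MYC-ON (35.5%) and 7 fell (11.3%), beside 13.8% and 34.0% of 13886 genes tested. The median change was 0.23 for the members and −0.29 for all genes. With the library median as a covariate 35 members rose (56.5%) and 3 fell (4.84%), beside 28.3% and 25.9% of all genes, the medians being 0.34 and 0.01. With median-of-ratios scaling, 39 members rose and 3 fell, and the median change was 0.60 for the members and 0.03 for all genes. The share of all genes called was not taken with this scaling. Within the 13 libraries at a library median of 3.8 or above, 7 rose and 0 fell, beside 5.62% and 7.69% of all genes. In all, 19 members rose both with and without the covariate, a joint count not taken for all genes.

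Among the members with the same call with and without the covariate, EIF3B had 163 to 349 TPM (median 297) in MYC-OFF and 534 to 604 TPM (median 568) in MYC-ON, so the groups did not overlap (0.97 ± 0.09, adjusted p = 5.03e-07; 1.07 with the covariate). EEF1AKMT4 had 32.7 to 49.3 TPM (median 40.7) and 80.1 to 152 TPM (median 122), the largest rise here (1.54 ± 0.10, adjusted p = 2.46e-08; 1.52 with the covariate). EIF4EBP1 went from a median of 388 to 849 TPM and was higher in all 13 time-matched pairs, though its ranges of 277 to 590 and 488 to 1252 TPM overlapped (1.14 ± 0.13, adjusted p = 3.96e-06; 0.88 with the covariate). EIF4A3, EIF3D and EEF1E1 rose by 0.76, 0.48 and 0.51, each in all 13 pairs, and EIF5A by 0.81 in 12 of 13 (1.02, 0.48, 0.46 and 1.09 with the covariate). EIF4A2 and EIF4EBP2 fell in SKNAS as well. EIF4A2 had 151 to 399 TPM (median 355) in MYC-OFF and 88.2 to 299 TPM (median 216) in MYC-ON, with 2 of 13 pairs higher (−0.67 ± 0.16, adjusted p = 3.12e-03; −0.33 with the covariate, adjusted p = 0.0174). EIF4EBP2 went from a median of 18.8 to 6.79 TPM (−0.96 ± 0.26, adjusted p = 6.41e-03; −0.34 with the covariate, adjusted p = 2.45e-03). Within the 13 libraries of high median EIF3B, EEF1AKMT4, EIF4EBP1 and EIF5A were still called, whereas EEF1E1 (0.50), EIF4A2 (−0.37) and EIF4EBP2 (−0.58) were not.

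For other members the SKNAS value turned on the library median. EIF4E had 8.54 to 73.5 TPM (median 60.7) in MYC-OFF and 3.59 to 110 TPM (median 65.6) in MYC-ON, so that each condition spanned several fold, and its difference was −0.05 ± 0.38 (adjusted p = 0.930) without the covariate and 0.81 ± 0.24 (adjusted p = 8.92e-03) with it. Its median over the high, middle and low library sets was 67.0, 65.6 and 8.74 TPM. EEF2K had medians of 14.5 and 13.5 TPM, with differences of 0.23 (adjusted p = 0.526) and 0.94 (adjusted p = 2.69e-08). EIF4G3 (chr1:20806292-21177285) was lower in MYC-ON without the covariate (−0.75 ± 0.28, adjusted p = 0.0381) and at −0.05 with it (adjusted p = 0.641), and its set medians were 38.3, 15.1 and 7.94 TPM. EIF3C ran the other way over the sets, at 360, 684 and 1256 TPM, and its rise of 0.65 (adjusted p = 0.0253) was 0.09 with the covariate. Across the 27 SKNAS libraries, which share a condition split and a time course, the level of 18 members correlated with the library median above 0.8 and that of 7 below −0.8. Of the 7 members that fell in SKNAS, each correlated with it, at r from 0.64 to 0.99. The annotated transcript length had a median of 3867.5 bases in the 18 and 2090 in the 7 with negative correlation. Neither these counts nor these lengths were set beside those of all genes, from whose levels the library median is computed. They therefore do not set the members apart from other genes.

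**Figure D3:**
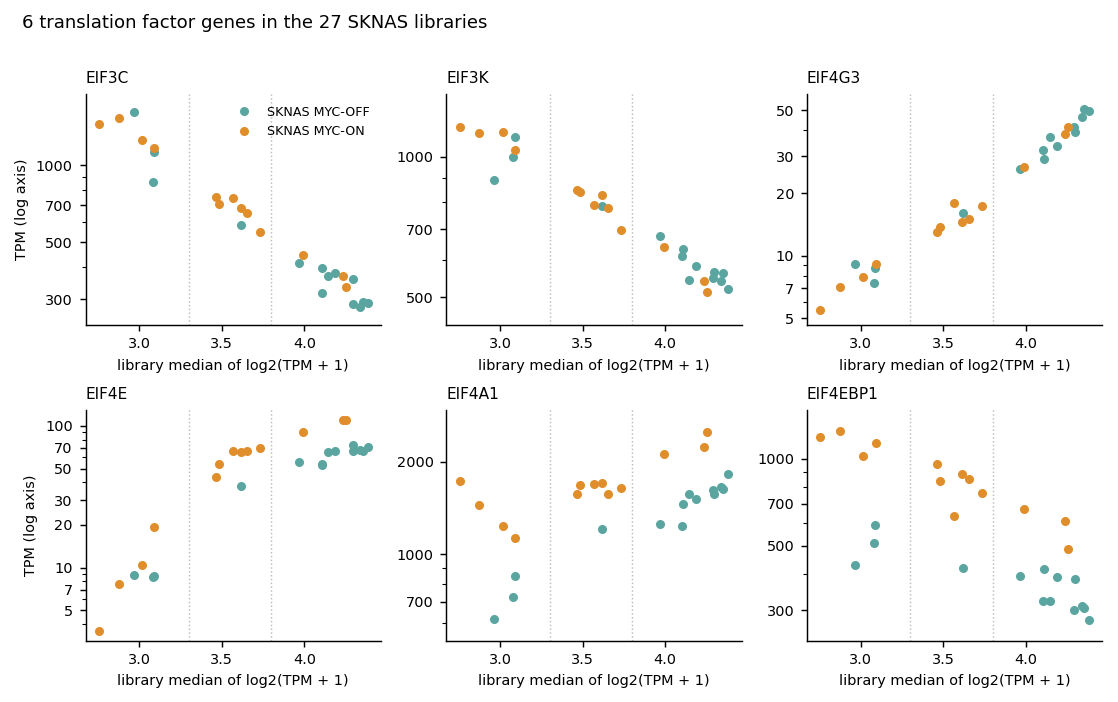
TPM of 6 members (vertical log axis) against the library median of log2(TPM + 1) (horizontal axis) in the SKNAS libraries, 1 point per library, coloured by condition, with dotted lines at 3.3 and 3.8. EIF4E, with set medians of 67.0 and 8.74 TPM at the right and left, follows the library median, and EIF3C, at 360 and 1256 TPM, runs against it.

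Setting the 2 lines side by side, 17 members rose in both, 3 fell in both (EEF1G, EIF4A2 and EIF4EBP2) and 2 moved in opposite directions (EIF3H and EIF4G3), beside 11.6%, 23.9% and 2.73% of the 12306 genes tested in both. With the covariate in SKNAS, 25 rose in both, EIF4A2 and EIF4EBP2 fell in both, and 0 had opposite calls, beside 21.2%, 18.2% and 3.88% of genes. EIF3H was lower in SKNAS MYC-ON at −0.35 (adjusted p = 0.0201), at −0.17 with the covariate (adjusted p = 0.163) and at 0.02 with median-of-ratios scaling, and EEF1G at −0.30 (adjusted p = 0.0254) was at −0.21 and 0.07 in the same fits.

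The difference in the MYC effect between the lines was then tested as an interaction in a fit of all 83 libraries. The effect in SKNAS lay above that in SHEP for 12 members and below it for 26, beside 13.5% and 38.0% of 15942 genes. With the covariate it lay above for 19 and below for 17, beside 24.1% and 22.8%. With median-of-ratios scaling it lay above for 25 and below for 10, at medians of 0.15 for the members and 0.0045 for all genes. With the spread estimated for each line, an alternative chosen after seeing the data, 4 lay above and 14 below, and without SHEP series 2 the counts were 7 and 11. Shares of all genes were not taken with median-of-ratios scaling, with the spread for each line or without series 2. Nor was one taken for the joint count that follows. Of the 38 members called, 13 had the same call with the covariate and with a spread for each line. Of these the value of SKNAS minus SHEP was above 0 for EIF6, EIF5AL1, EIF2B4 and EEF1AKMT1, and below 0 for EEF1A2, EIF2B2, EIF4G3, EEF2K, EIF3F, EIF2D, EIF2A, EIF2S3 and EIF3H. A value below 0 could be a rise in SHEP, as for EEF1A2 and EIF2B2, or mainly a lower level in SKNAS MYC-ON without the covariate, as for EIF3F (0.04 in SHEP and −0.66 in SKNAS) and EIF2S3 (0.12 and −0.43). With the covariate EIF3F was still called lower in SKNAS, whereas EIF2S3 was at −0.07 and not called. EEF1A2 (−1.34) and EIF2B2 (−1.01) had the same call in every alternative run for this difference. EIF5AL1 and EIF4EBP3 passed the level limit through SKNAS alone, so their differences between the lines depend in part on that rule. EIF5AL1 is also a near-copy of EIF5A, and its reads may be shared with it. Without these 2 members 10 lay above and 26 below, and 18 and 17 with the covariate. EEF1A2 in SKNAS had 223 to 645 TPM (median 575) in MYC-OFF and 369 to 695 TPM (median 528) in MYC-ON, overlapping throughout (−0.02, adjusted p = 0.867; −0.05 with the covariate). EIF2B2 in SKNAS went from a median of 91.5 to 77.5 TPM (−0.23, adjusted p = 0.166; 0.02 with the covariate). EIF2B4, by contrast, had 39.2 to 122 TPM (median 43.3) and 57.5 to 186 TPM (median 91.2) in SKNAS (0.86, adjusted p = 5.30e-04; 0.49 with the covariate), beside medians of 52.6 and 68.6 TPM in SHEP. Its difference between the lines was 0.51, and 0.21 with the covariate, and its SKNAS level was among the 7 that correlated with the library median below −0.8.

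Levels in MYC-OFF also differed between the lines. At a change of at least 0.66 on the log2 scale, 12 members were higher in SKNAS and 9 lower, beside 20.0% and 31.1% of all genes, and 11 were higher without EIF4EBP3, which passed the level limit through SKNAS alone; each line was a time series of its own, so line and series cannot be told apart. EEF1A2 stood at medians of 19.8 TPM in SHEP and 575 TPM in SKNAS (4.68). EIF4EBP3, which lies within the read-through gene ANKHD1-EIF4EBP3, had medians of 0.220 and 18.2 TPM. The eIF2B genes EIF2B1, EIF2B2 and EIF2B3 were higher in SKNAS by 0.89, 0.71 and 0.88, EIF3B by 1.08, EIF4A2 by 0.96 and EIF4EBP1 by 0.74 (0.64 with the covariate, under the limit on size). Lower in SKNAS were EIF3D (−1.34), EIF4E (−1.33), EIF4ENIF1 (−1.33), EIF5 (−1.22), EIF3A (−0.88), EIF6 (−0.86), EIF4E2 (−0.77), EIF1B (−0.72) and EIF4H (−0.71). Some of these values were smaller against SKNAS libraries of high median: with those at 3.8 or above, EIF4E was at −0.70, EIF4ENIF1 at −0.90 and EIF5 at −0.74, and EIF3A (−0.24) and EIF4H (−0.11) lay under the limit on size, as they did with the covariate. EIF3D was at −1.34 and EIF6 at −0.87 within the same libraries.

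Ratios of TPM + 1 between paralogs largely cancel a scaling common to a library, but not an unevenness between genes, and they are given as a description, the fold being that of the mean log2 ratio. The ratio of EIF4A1 to EIF4A2 was 5.62 in SHEP MYC-OFF and 12.4 in MYC-ON (2.49 ± 0.20 and 3.63 ± 0.23 in log2, SD), higher with MYC-ON in 28 of 28 pairs. In SKNAS it was 4.14 and 8.78, higher in 13 of 13 pairs. This shift of 1.14 and 1.08 (log2) in SHEP and SKNAS stood beside median EIF4A2 levels of 160 and 355 TPM in MYC-OFF. The ratio of EIF4EBP1 to EIF4EBP2 went from 10.7 to 37.9 in SHEP (28 of 28 pairs) and from 23.2 to 102 in SKNAS (11 of 13 pairs). In SKNAS this shift was 2.14 (log2), but 1.22 with the library-median covariate and 1.31 within the 13 libraries of high median. That of EIF4A1 to EIF4A2 was 0.98 with the covariate and 0.93 within those libraries. The mean ratio of EIF5A to EIF5A2 was 0.65 (log2) higher with MYC-ON in SHEP, with 23 of 28 pairs higher, and 1.18 higher in SKNAS, with 12 of 13 (0.85 with the covariate, 0.49 within the libraries of high median). The ratio of EEF1A1 to EEF1A2 went from 427 to 145 in SHEP, lower in 28 of 28 pairs, whereas in SKNAS it was 17.4 and 17.5, higher in 8 of 13. EIF4E over EIF4E2 was 0.77 higher in SHEP, with 28 of 28 pairs higher, and in SKNAS 4 of 13 pairs were higher (−0.44, but 0.49 with the covariate). The ratios of EIF4G1 to EIF4G2, EIF4G1 to EIF4G3 and EIF1 to EIF1B moved less in SHEP, by 0.17, −0.13 and −0.04. In SKNAS these ratios moved by 0.62, 1.17 and −0.04, and by 0.04, 0.51 and −0.09 with the covariate.

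**Figure D4:**
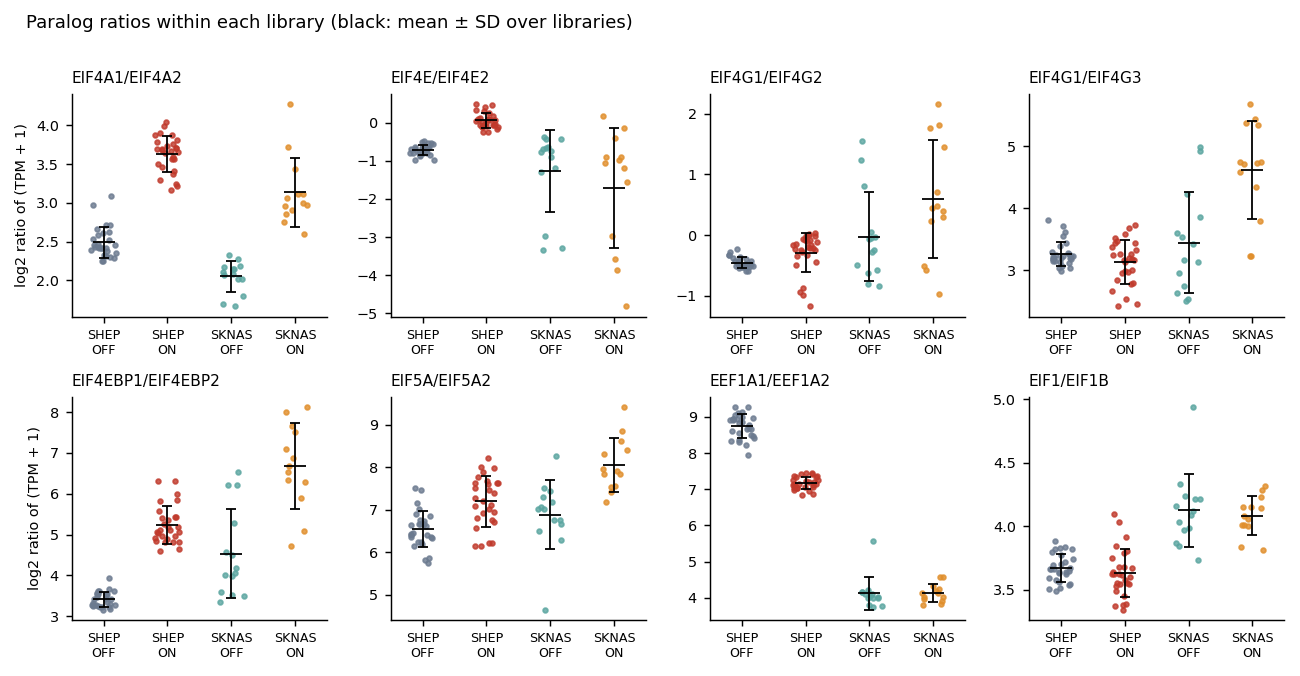
log2 ratio of TPM + 1 between paralogs (vertical axis) in each library of the 4 groups, with the mean ± SD in black. EIF4A1 over EIF4A2 moves from 2.49 to 3.63 in SHEP and from 2.05 to 3.13 in SKNAS, and EEF1A1 over EEF1A2 from 8.74 to 7.18 in SHEP beside 4.12 and 4.13 in SKNAS.

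To see whether members drifted over the collection, a straight line in time was fitted in SHEP within each condition, with calls on adjusted p alone. In MYC-OFF 8 members rose over time and 11 fell, beside 5.78% and 10.3% of all genes. In MYC-ON 21 rose (35%) and 23 fell (38.3%), beside 20.0% and 37.2%, so the share that fell was near that of all genes. With median-of-ratios scaling the MYC-OFF counts were 12 and 7, and without series 1 they were 2 and 1. The difference between the slopes of the conditions was not tested. In both conditions 8 members rose (EEF1A1, EEF1B2, EEF1G, EIF3E, EIF3K, EIF3L, EIF4A2 and EIF4B) and 7 fell (EEF1E1, EIF2S1, EIF3J, EIF4G1, EIF4H, EIF5A and EIF6). Shares of all genes were not taken for these joint counts, or for those with median-of-ratios scaling or without series 1. EIF4EBP2, EIF5 and EIF4A3 fell by 0.51, 0.50 and 0.43 (log2 per 24 h) in MYC-ON. EIF4EBP2 went from 16.6 and 15.9 TPM at CT24 in the MYC-ON series to 5.94 and 7.04 at CT76, while in MYC-OFF it went from 21.3 and 19.9 to 18.9 and 21.1. EIF5A went from 2493 and 2077 TPM to 1423 and 1377 in MYC-ON, and from 1276 and 1034 to 987 and 995 in MYC-OFF. EEF1A1, at 7308 and 6540 TPM at CT24 in MYC-ON, reached 9572 and 8838 at CT76, where MYC-OFF had 9340 and 9175. The 2 conditions thus lay closer together at the last time point than at the earliest for EIF5A and EEF1A1, and farther apart for EEF1A2. EEF1A2 went from 30.1 and 24.1 TPM to 17.6 and 13.8 in MYC-OFF and from 51.3 and 38.5 to 75.2 and 74.4 in MYC-ON (−0.34 and 0.23 per 24 h). EIF5 in MYC-ON ended at 111 TPM in series 1 and 231 in series 2, from 338 and 297. Over the same times the ribosomal protein share of TPM went from 15.5 and 15.0% to 21.4 and 21.8% in MYC-ON, and from 15.8 in each series to 18.6 and 18% in MYC-OFF; its part in the slopes was not tested.

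**Figure D5:**
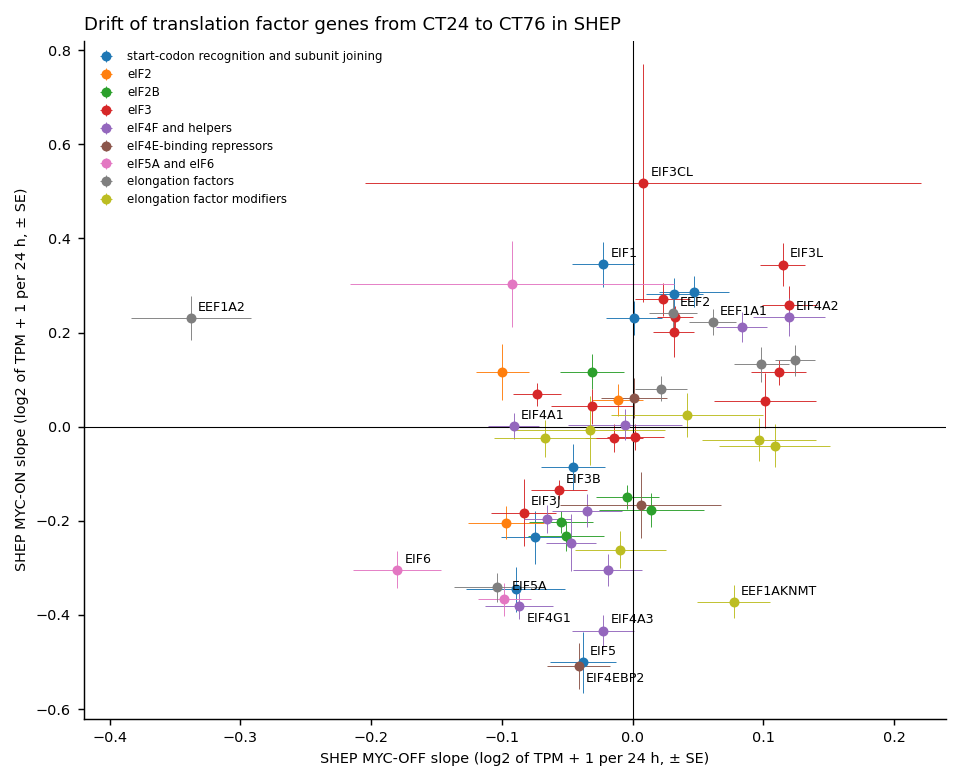
Slope over time in SHEP (log2 of TPM + 1 per 24 h) in MYC-ON (vertical axis) against MYC-OFF (horizontal axis), 1 point per member with bars for the standard error, coloured by role. EEF1A2, at −0.34 and 0.23, is the member farthest into the upper left.

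The question of rhythm was asked with a 24-hour cosine fit to each gene in each group. By limma 0 members were called in any group, beside 0.125% of all genes in MYC-OFF and 0.0139% in MYC-ON of SHEP, and 0.0% and 0.0% in the same conditions of SKNAS. At an unadjusted p under 0.05 the members numbered 8, 2, 0 and 0. In SHEP the smallest adjusted p was 0.345 for MYC-OFF and 0.338 for MYC-ON. The median amplitude of members there was 0.04 in both (log2), beside 0.06 and 0.07 for all genes. In SKNAS it was 0.14 and 0.16, beside 0.16 and 0.19 for all genes. The gene with the smallest p in SHEP MYC-OFF was EIF5A2, with an amplitude of 0.34 at a level near 10.5 TPM. In data simulated for SHEP MYC-OFF the same fit called 93% of rhythms of amplitude 0.5 (log2), so weaker rhythms of the translation factors may not have been detectable. Detection of rhythm in SKNAS was not simulated. The paper's tool, ECHO, was not run here, and by it the paper reports oscillating genes in both lines. Among programs of genes that lost oscillation and rose with MYC-ON in these lines, the paper lists ribosome assembly and protein translation. Its SKNAS analysis also used another series, not among these libraries, and a looser threshold.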

How the data were processed

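RNA-seq of 83 libraries was used. The authors quantified reads with Salmon 1.3.0 and summed transcripts with Tximport 1.12.3 on Gencode 35 (GRCh38), per the methods and labels, and deposited gene-level TPM, a share of each library scaled for transcript length. Raw counts were not used here, so the read depth of each library and its counting error are unknown, and genes with near-identical copies are uncertain. How the processing treats paralogs affects the levels of EIF3C, EIF3CL, EIF5AL1 and EEF1A1. All columns could be mapped to a sample.

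From the TPM, log2(TPM + 1) was fitted for all genes with a mean of at least 1 TPM by limma 3.58.1 in R 4.3.3 (trended, robust variance), with condition and time point as terms, and Benjamini-Hochberg adjustment over all genes. A change on this scale understates that of low genes. Calls needed an adjusted p of at most 0.05 and a change of at least 0.15 (0.66 between lines; no size limit for slopes and rhythm). Genes given with full values were a list of 19 key factors, the 5 largest called changes per direction and line, the 3 largest called interactions per direction, members called in opposite directions in the lines, and the 3 largest called changes per direction among the pathway genes; other members are given by role. The members, lists and tests were chosen with earlier results of these data known. Series numbers in SHEP were tested for pairing: the differences between series 1 and 2 correlated at r = 0.489 over 14362 genes between the conditions, across genes that are not independent, so series was also used as a block. Alternatives were a pseudocount of 0.1, no level filter, other scalings, library sets, each series left out, and a spread for each line, which was added after seeing the data. In tests on simulated data for SHEP (14362 genes, 200 changed), 77% of changes of 0.3 and 100% of changes of 1 on the log2 scale were recovered; for SKNAS (13886 genes) 1% and 67%. Gene positions were from Gencode 44 and promoters from RefSeq.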

Additional observations from a re-analysis of the deposited data

Results flagged for a closer look

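The MYC effect in SKNAS minus that in SHEP (log2 of TPM + 1) passed the interaction test of limma for 21 named members. Of all 15942 genes, 13.5% passed it above 0 and 38.0% below 0, so passing does not set these members apart. Some of them were named because their called interaction was among the largest. The value was above 0 for EEF1AKMT1 (0.67), EIF2B4 (0.51), EIF4EBP3 (0.47), EIF6 (0.45), EEF1AKMT4 (0.40), EIF1AD (0.30), EIF4G1 (0.28) and EEF1A1 (0.23). It was below 0 for EEF1A2 (−1.34), EIF2B2 (−1.01), EIF4G3 (−1.0008), EIF4E (−0.77), EEF2K (−0.75), EIF3F (−0.69), EIF2S3 (−0.55), EIF3H (−0.54), EIF5A2 (−0.54), EIF3J (−0.39), EIF2B5 (−0.31), EEF2 (−0.24) and EEF1E1 (−0.19). EEF1A2 was already near 575 TPM in SKNAS MYC-OFF, where SHEP MYC-OFF had a median of 19.8 TPM. A value above 0 was not always a larger effect in SKNAS: EEF1A1 was at −0.24 in SHEP and −0.01 in SKNAS. Nor was one below 0 always a larger effect in SHEP: EIF3F was at 0.04 and −0.66, EIF2S3 at 0.12 and −0.43, EIF3H at 0.19 and −0.35 and EIF4G3 at 0.25 and −0.75. These SKNAS values are without the library-median covariate. With it EIF2S3, EIF3H and EIF4G3 were no longer called lower in SKNAS, and EIF3F still was. With the library-median covariate several differences were smaller, among them EIF4G3 (−0.40), EEF2K (−0.16), EIF2B4 (0.21) and EIF2S3 (−0.25), and EIF4E (−0.07), EIF2B5 (−0.09), EIF3J (0.0048), EIF4EBP3 (0.11) and EIF5A2 (−0.09) were no longer called. Of 10 alternatives EIF3J had the same call in 1, and EIF4EBP3 and EIF5A2 in 2.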

How the results depend on the processing

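The read depth of each library was unknown, SKNAS had a single series, and its libraries differed in median level between the conditions. SKNAS counts changed with scaling; the cause of the changes below was not tested. Counts below are of members alone, with no share of all genes beside them. In SHEP, 29 to 43 members were higher over all alternatives. A replicate block for series gave 38 higher and 5 lower, also when series and time point were both blocked, and changed no named call. In this balanced design such blocks leave the estimates as they were and change only their standard errors. Without replicate 1 or 2 (a series), 37 to 38 were higher and 4 to 7 lower; with series means as replicates 3 were lower.

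In SKNAS, 39 were higher and 3 lower with median-of-ratios scaling, 35 and 3 with the library-median covariate, 4 lower without libraries of median below 3.3, and 7 and 0 in those of at least 3.8. For SKNAS minus SHEP the counts above and below were 25 and 10, 19 and 17, and 1 and 2 in the first, second and last of these fits, 4 and 14 with a spread for each line, and 7 to 9 and 11 without a SHEP series. The SHEP MYC-OFF slopes gave 7 falling with median-of-ratios scaling and, without a series, 2 to 5 rising and 1 to 12 falling. The counts of the line difference, of the MYC-ON slopes and of rhythm stayed within 1.5 times under the alternatives run for them.

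Signs turned in SHEP, without replicate 1 or 2, for EIF3F (−0.036 to 0.11), EIF6 (−0.16 to 0.035) and EIF4G2 (−0.13 to 0.029), and with the covariate for EIF4G2 (0.082). In SKNAS they turned with median-of-ratios scaling for EEF1A1 (0.36), EEF1A2 (0.35), EEF1G (0.072), EEF2 (0.35), EIF2B2 (0.14), EIF3H (0.019), EIF4E (0.31) and EIF4G2 (0.17). With the total taken without mitochondrial and ribosomal protein genes, they turned for EEF1A1 (0.027), EEF1A2 (0.014) and EEF2 (0.014). The covariate turned EIF2B2 (0.024), EIF4E (0.81), EIF4G2 (0.43) and EIF5A2 (0.24). Leaving out libraries below 3.3 turned EIF1AD (−0.013) and EIF4E (0.24), and keeping those of at least 3.8 turned EEF2 (0.029), EIF2B2 (0.080), EIF4E (0.67), EIF4EBP3 (−0.064), EIF4G2 (0.46) and EIF5A2 (0.39). The interaction turned with median-of-ratios scaling for EEF1E1 (0.093) and EEF2 (0.043), with the covariate for EIF3J (0.0048), and in libraries of at least 3.8 for EIF3J (0.057), EIF4EBP3 (−0.12) and EIF5A2 (0.20).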
